A study of Mus musculus with 25 samples.

Results

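Integrins, cadherins, claudins, zonula occludens proteins and connexins are the membrane receptors and junction proteins by which hepatocytes hold on to the matrix and to each other, and their genes were followed here through 7 groups of sorted mouse hepatocytes. The members were the gene symbols made of Itga or Itgb with a number or a single letter, or of Cdh, Cldn, Tjp, Gja, Gjb, Gjc, Gjd or Gje with a number, without pseudogenes, that had 10 or more counts summed over the 25 libraries. The count table lists 37117 symbols, of which 94 matched this pattern, and 50 members are described here: 15 integrin alpha, 7 integrin beta, 7 cadherin, 13 claudin, 2 zonula occludens and 6 connexin genes. The low-count filter of the test kept 37 of the 50, namely 13, 5, 5, 6, 2 and 6 of these families. Itga2b, Itgb2l, the cadherin-related Cdhr genes and the Cldn34 and Cldnd genes are outside the pattern.

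The study raised the activity of YAP, a transcriptional coactivator that the Hippo kinases LATS1 and LATS2 hold inactive, in 2 ways in the mouse liver, and measured polyadenylated RNA by 3′ end sequencing. ApoYap mice carry the ApoE-rtTA and TRE-hYAP transgenes, so that doxycycline switches on a human YAP driven through the ApoE promoter. They were sampled untreated (ApoYap ctrl, n = 4) and after 1 week on drinking water with 0.2 mg/ml doxycycline and sucrose (ApoYap Dox, n = 3). Mice with floxed Lats1 and Lats2 alleles were sampled untreated (Lats1/2 flox ctrl, n = 4) and 1 week after a tail vein injection of AAV8-TBG-Cre, an adeno-associated virus that expresses Cre recombinase from the hepatocyte promoter TBG (Lats1/2 KO, n = 3). C57BL/6 mice, which carry neither the transgenes nor floxed alleles, were untreated (BL/6 ctrl, n = 4), received the same doxycycline water for 1 week (BL/6 Dox, n = 4) or were sampled 24 hours after the virus (BL/6 AAV-Cre, n = 3), so the virus control was taken at another time than the knockout. Livers were perfused to open cell junctions and digested with collagenase, and 500000 cells per sample were sorted; the sort gate, the animals' sex and age and any batch are not given in the labels. Nothing says that replicates came from separate animals, so p-values measure the spread between these samples, which may be technical.

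Integrins are pairs of an alpha and a beta chain: beta 1 pairs with many alphas to bind collagen, laminin and fibronectin, alpha v pairs bind ligands with an RGD motif, and the beta 2 and beta 7 pairs are carried by leukocytes. Classical cadherins hold neighbouring cells together at adherens junctions; claudins seal the tight junctions that part bile canaliculi from blood, with the zonula occludens proteins as the scaffold beneath them; connexins form gap junction channels, which in hepatocytes are made mainly of connexin 32 (Gjb1) and connexin 26 (Gjb2). YAP reaches DNA through TEAD factors, whose motif reads GGAATG, and often acts beside AP-1 factors, whose motif reads TGANTCA.

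Promoter sequence bears on these genes because YAP acts through such motifs. The RefSeq promoter table (GRCm38.p6) held 35 of the 50 members, with 46 start sites, and the 250 bases before each were searched on both strands. GGAATG was found in 6 of the 46 windows (13.0%), against 12.6% of 32851 promoters of the same length, and TGANTCA in 4 (8.70%), against 6.75%. The windows with GGAATG belong to Cldn2, Cldn7, Cldn15, Gjb1, Itga10 and Itgb1, and those with TGANTCA to Cldn4, Cldn15, Gja1 and Itgax; Cldn15 has both. A match describes letters and is not a binding site. Shown are 60-base stretches, 5′ to 3′ on the gene's strand, of 4 members whose RNA is described below: Cldn2 at chrX:139800634-139800693 (plus strand), with the motif starting 147 bases before the start site, Gjb1 at chrX:101376985-101377044 (plus strand, 226 bases before 1 of its 4 listed start sites), Itgb1 at chr8:128685594-128685653 (plus strand, 7 bases before) and Gja1 at chr10:56377240-56377299 (plus strand, 19 bases before). Capitals mark the TEAD motif in Cldn2, Gjb1 and Itgb1 and the AP-1 motif in Gja1.
Cldn2: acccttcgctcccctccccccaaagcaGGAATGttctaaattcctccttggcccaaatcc
Gjb1: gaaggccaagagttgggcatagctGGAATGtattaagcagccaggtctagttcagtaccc
Itgb1: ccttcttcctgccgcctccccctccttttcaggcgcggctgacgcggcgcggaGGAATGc
Gja1: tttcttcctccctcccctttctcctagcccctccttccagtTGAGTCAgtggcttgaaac

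Levels are given in CPM, counts relative to library size after scaling of the libraries by TMM (trimmed mean of M values), and since each transcript gives a single 3′ tag, they were set side by side between genes without a length correction. Libraries held 8107539 to 16515330 counts, so that 1 count was worth 0.0361 to 0.141 CPM, and members below about 1 CPM rest on few counts. Sums of cell type markers are given without TMM scaling, in CPM of the library total, and so on another scale than the members. The TMM factors, by which scaled values are divided, were 1.68 to 1.84 in ApoYap Dox and 0.909 to 0.98 in ApoYap ctrl. In Lats1/2 KO and Lats1/2 flox ctrl they were 1.14 to 1.29 and 0.83 to 0.889. Unscaled hepatocyte markers summed over 10 genes to between 49410 and 98330 CPM across all libraries, and these sums differed between groups. With Yap induction the range moved from 76720 to 93110 CPM down to 49410 to 68120 CPM, without overlap. The knockout libraries held 61120 to 66890 CPM, all below their floxed controls at 67780 to 78550 CPM. The ApoYap Dox and Lats1/2 KO libraries stood apart from all others on the first principal component and Lats1/2 KO 2 had the highest sums of endothelial, macrophage and stellate cell markers of its group. Lats1 fell in the knockout by 1.67 log2 units (SE 0.228, adjusted p = 4.1e-06) and Lats2 did not pass the test (-0.13, 95% interval -0.55 to 0.29), though a 3′ tag need not lie in the deleted part. Mouse Yap1 fell in ApoYap Dox (-1.05, SE 0.118), and the human transgene has no row in the table used here.

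Connexin 32 and 26, E-cadherin, N-cadherin, 5 of 6 tested claudins and zonula occludens 3 fell with Yap, while most integrins, VE-cadherin, claudin 5 and connexin 43 rose. With Yap induction 23 of the 37 tested members rose (62.2%), where 35.0% of all 12970 genes were called higher. In the same comparison 11 fell (29.7%), where 32.0% were called lower. In the knockout 18 rose (48.6%), against 20.6% of all genes, and 6 fell (16.2%), against 17.4%. The shares that fell were thus near those of all genes in both comparisons. The median log2 fold change of the members was 1.31 with Yap and 0.745 in the knockout, and that of all genes 0.0682 and -0.0279. Scaling by total counts alone in place of TMM moved the median of all genes by 0.917 and 0.469, to 0.985 and 0.441. Then 24 members rose and 8 fell with Yap, where 8612 of all 12970 genes were called higher and 1643 lower. In the knockout 23 members rose and 3 fell, where 5777 genes were called higher and 573 lower. With this scaling the share of members that rose with Yap was no larger than that of all genes. Setting aside the leukocyte integrins, Cdh5, Cldn5 and Gja4, genes known from blood and endothelial cells, left 28 tested members. Of these 14 rose and 11 fell with Yap, and 11 rose and 6 fell in the knockout. They are not free of genes of such cells, since Gja1, Cdh4, Cdh13 and Itgb3, described below as genes of vessel cells or platelets too, stayed among them.

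**Figure D1:**
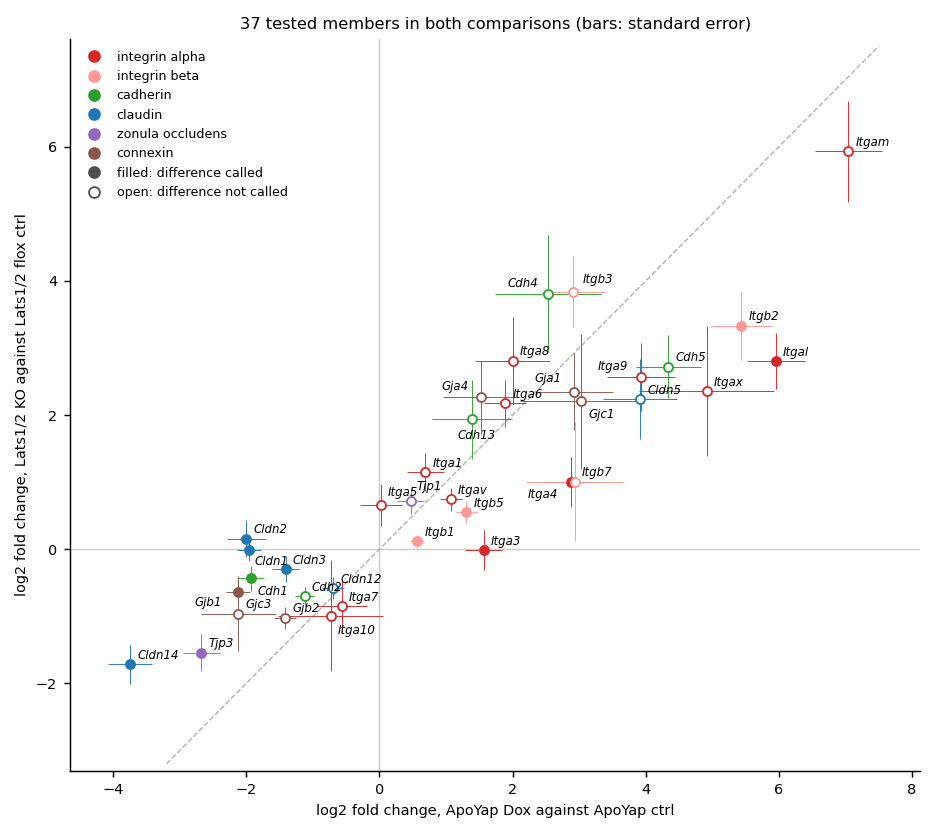
Log2 fold change of the 37 tested members with Yap induction (horizontal) and in the Lats1/2 knockout (vertical), coloured by family, with standard errors; the dashed line marks equal change, and filled points are the members for which the difference between both responses was called (7 above the line and 6 below it). Cldn1, Cldn2, Cldn3, Cldn14, Cdh1, Gjb1 and Tjp3 lie at the left and above the line, and Itgal, Itgb2, Itga4, Itga3, Itgb5 and Itgb1 at the right and below it.

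The gap junction genes of hepatocytes fell with Yap. Gjb1 (connexin 32, X:101376378-101385629, plus strand) was the most abundant member, and made up 79.6% ± 3.79 (SD, n = 4) of the CPM of the 6 connexins in ApoYap ctrl and 67.1% ± 4.54 (SD, n = 3) in ApoYap Dox. Its level was 728, 798, 704 and 809 CPM in ApoYap ctrl and 186, 207 and 131 CPM in ApoYap Dox. The groups did not overlap, and the fold change was -2.12 on the log2 scale (SE 0.179, adjusted p = 1.8e-10). In the floxed strain Gjb1 stood at 649.9, 534, 548 and 681 CPM untreated and at 399.5, 305 and 464 CPM in the knockout. All 3 knockout libraries were below the 4 controls, with a smaller change of -0.63 (SE 0.169, adjusted p = 0.0045), which missed the threshold without Lats1/2 KO 2 (-0.48, adjusted p = 0.053) and came to -0.17 (adjusted p = 0.34) with total counts alone, which is -0.62 relative to the shifted median. In bulk RNA, fewer hepatocytes among the sorted cells and less of a transcript per hepatocyte cannot be told apart. The 10 hepatocyte markers fell beside Gjb1, 10 of 10 with Yap (median log2 fold change -2.49) and 9 of 10 in the knockout (-0.897), and their part in the result was not tested.

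Gjb2 (connexin 26, 14:57098600-57104702, minus strand) was the second connexin by level. It read 167, 179, 244 and 174 CPM in ApoYap ctrl and 64.3, 88.1 and 62.1 CPM in ApoYap Dox. It fell by 1.42 log2 units (SE 0.164, adjusted p = 3.8e-08) and the libraries did not overlap. The knockout lowered it from 190.2, 246, 239 and 221 CPM to 114, 91.0 and 126 CPM, a change of -1.02 (SE 0.162, adjusted p = 2.8e-05). The 2 responses of Gjb2 differed by 0.40 (95% interval -0.06 to 0.86, adjusted p = 0.19), whereas those of Gjb1 differed by 1.49 (95% interval 1.00 to 1.98, adjusted p = 3.5e-05). Gjc3, a connexin best known from glia, was near 1 CPM and fell with Yap (-2.12, SE 0.565, adjusted p = 0.0019), a call lost with total counts alone (-1.22, adjusted p = 0.054, -2.20 relative to the shifted median), while in the knockout its interval ran from -2.11 to 0.18.

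Gja1, Gja4 and Gjc1 were low in untreated hepatocytes and rose with Yap. Gja1 (connexin 43, 10:56377330-56402513, plus strand), the common connexin of vessel wall, stellate and many other cells, went from 0.494, 1.17, 1.04 and 1.60 CPM in ApoYap ctrl to 6.72, 6.38 and 11.2 CPM in ApoYap Dox. In the floxed strain it moved from 1.43, 0.795, 1.43 and 1.87 CPM to 5.01, 12.2 and 4.13 CPM. The fold changes were 2.93 with Yap (SE 0.574, adjusted p = 9.7e-05) and 2.35 in the knockout (SE 0.574, adjusted p = 0.0024), and Gja1 stayed at 3.34% and 1.5% of the CPM of the 6 connexins in the raised groups. Gja4 (connexin 37), a connexin of arterial endothelium, rose by 2.26 in the knockout (SE 0.538), from 1.55 to 3.29 CPM up to 5.57 to 17.1 CPM. With Yap its libraries overlapped (0.503 to 2.80 and 2.44 to 5.16 CPM), and its call (1.52, adjusted p = 0.022) was lost without ApoYap ctrl 1, ApoYap ctrl 2 or ApoYap Dox 3 (adjusted p = 0.074, 0.072 and 0.11). Gjc1 went from 3 counts in ApoYap ctrl to 44 in ApoYap Dox, a ratio of 9.5 (95% interval 3.05 to 47.8, counting error only).

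**Figure D2:**
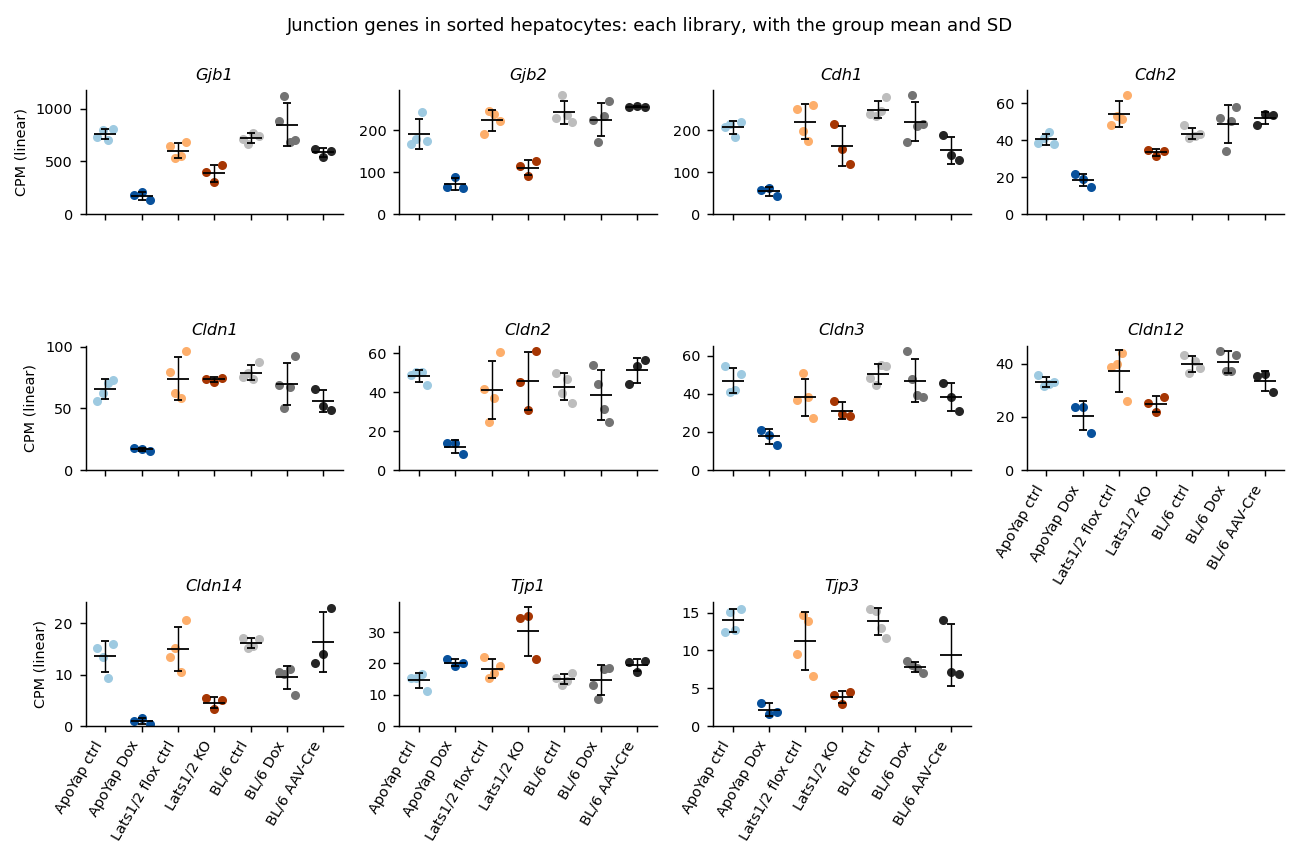
CPM (linear axis from 0) of 11 junction genes in each library of the 7 groups, with the group mean (short line) and SD (bars). In ApoYap Dox, Gjb1, Gjb2, Cdh1, Cdh2, the 5 claudins shown and Tjp3 lie below all ApoYap ctrl libraries; in the knockout Cldn1 and Cldn2 lie among the controls (71.3 to 75.1 and 30.8 to 61.0 CPM), and 2 of the 3 Tjp1 libraries (34.4 and 35.1 CPM) are the highest of all.

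E-cadherin fell with Yap and did not pass the test in the knockout. Cdh1 (8:106603351-106670246, plus strand), the classical cadherin of epithelia, read 208, 215, 184 and 219 CPM in ApoYap ctrl and 57.3, 62.8 and 42.2 CPM in ApoYap Dox (-1.93, SE 0.198, adjusted p = 5.2e-09), with no overlap. In the floxed strain it spread over 251, 198, 173 and 258 CPM untreated and 214, 155 and 119.8 CPM in the knockout, and the groups overlapped (-0.43, 95% interval -0.82 to -0.05, adjusted p = 0.071). Without Lats1/2 KO 1 or without Lats1/2 flox ctrl 3 the fall would pass the test (-0.68 and -0.53, adjusted p = 0.011 and 0.036), so the call turned on single libraries. The 2 responses differed by 1.498 (SE 0.265, adjusted p = 1.2e-04).

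N-cadherin (Cdh2), the other classical cadherin of hepatocytes, fell in both. Its levels of 38.6, 41.2, 44.3 and 37.8 CPM in ApoYap ctrl became 21.8, 18.8 and 14.9 CPM in ApoYap Dox (-1.12, SE 0.145, adjusted p = 2.3e-07). The knockout took it from 48.5, 53.1, 51.5 and 64.5 CPM to 34.8, 31.3 and 34.2 CPM (-0.70, SE 0.143, adjusted p = 4.0e-04). With total counts alone neither change of Cdh2 passed (-0.21 and -0.23, adjusted p = 0.18 and 0.19), though relative to the shifted median of all genes they stayed at -1.20 and -0.68.

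VE-cadherin made up the largest mean share of cadherin transcripts in ApoYap Dox. Cdh5 (8:104101625-104144511, plus strand), the cadherin of endothelial cells, stood at 2.82, 4.02, 4.98 and 6.91 CPM in ApoYap ctrl and at 85.2, 72.6 and 123 CPM in ApoYap Dox. Its share of all cadherin CPM went from 1.85% ± 0.649 (SD, n = 4) to 54.6% ± 10.8 (SD, n = 3), while that of Cdh1 went from 81.6% ± 2.14 to 32.4% ± 8.60. The rise was 4.34 log2 units (SE 0.490, adjusted p = 1.6e-07). In the knockout Cdh5 read 25.6, 67.2 and 30.5 CPM against 13.0, 3.29, 4.64 and 3.94 CPM, a rise of 2.72 (SE 0.473, adjusted p = 1.6e-04). The highest value on each side belonged to Lats1/2 KO 2 and to Lats1/2 flox ctrl 1, the libraries with the highest endothelial marker sums of their groups (1457 and 231.7 CPM).

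Endothelial markers rose beside Cdh5. Of 18 sinusoidal endothelial markers 17 rose with Yap (median 2.86, highest 3.53) and 18 in the knockout (median 2.38, highest 2.89). Their sum ran from 79.3 to 195 CPM in ApoYap ctrl, 1163 to 2241 CPM in ApoYap Dox, 79.8 to 231.7 CPM in Lats1/2 flox ctrl and 547 to 1457 CPM in Lats1/2 KO, with none of the 18 at 0 in a group. As point estimates, the fold change of Cdh5 with Yap was 4.34, beside 3.53 for the highest marker. In the knockout it was 2.72, within the range of the markers. The difference between Cdh5 and the markers was not tested, and neither was their part in the result.

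Cdh4 and Cdh13 were low, at most 1.13 and 3.38 CPM in the untreated libraries of the 3 strains. Cdh4 (R-cadherin), a classical cadherin of nerve and vessel, rose by 2.53 with Yap (SE 0.798, adjusted p = 0.0073) and by 3.81 in the knockout (SE 0.873, adjusted p = 0.0013), to at most 1.83 and 4.45 CPM. Cdh13 (T-cadherin), a lipid-anchored cadherin of vessel cells, read 3.46, 4.92 and 2.44 CPM in the knockout against 2.08, 0.454, 0.595 and 0.591 CPM in its controls (1.94, SE 0.587, adjusted p = 0.011), a call that did not hold without Lats1/2 KO 2 (adjusted p = 0.064). With Yap its 3 libraries read 1.70, 1.72 and 1.74 CPM against 0.212 to 1.10 CPM (1.39, adjusted p = 0.046), and leaving out any library but ApoYap ctrl 2 or 4 ended that call (adjusted p 0.077 to 0.15).

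Of the 6 tested claudins 5 fell with Yap, against 32.0% of all genes, and Cldn5 rose, while in the knockout Cldn12 and Cldn14 fell, against 17.4%, and Cldn5 rose. Cldn1, a sealing claudin of hepatocytes, read 56.3, 62.3, 71.0 and 73.2 CPM in ApoYap ctrl and 18.2, 16.8 and 15.4 CPM in ApoYap Dox (-1.96, SE 0.177, adjusted p = 5.3e-10). In the knockout its 74.2, 71.3 and 75.1 CPM lay inside the range of the controls (58.4 to 96.4 CPM), with a difference of -0.02 (95% interval -0.36 to 0.32), and 0.46 (adjusted p = 0.029) with total counts alone, which is 0.01 relative to the shifted median. The 2 responses of Cldn1 differed by 1.95 (SE 0.237, adjusted p = 9.4e-07). Cldn2, the claudin that forms cation and water pores, went from 49.0, 50.2, 50.2 and 43.6 CPM to 14.2, 13.9 and 8.10 CPM with Yap (-2.00, SE 0.291, adjusted p = 3.1e-06). The knockout libraries read 45.5, 30.8 and 61.0 CPM against 41.7, 24.7, 36.9 and 60.7 CPM (0.16, 95% interval -0.41 to 0.72), and the responses differed by 2.16 (SE 0.391, adjusted p = 2.5e-04).

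Cldn3, another sealing claudin of liver epithelium, read 54.4, 40.8, 42.0 and 50.5 CPM in ApoYap ctrl and 21.1, 18.4 and 13.4 CPM in ApoYap Dox (-1.41, SE 0.199, adjusted p = 9.8e-07). The knockout interval of Cldn3 was -0.70 to 0.11, and the responses differed by 1.12 (SE 0.274, adjusted p = 0.0032). Cldn14 fell furthest of the claudins and in both comparisons. Its 15.2, 13.5, 9.34 and 16.0 CPM in ApoYap ctrl became 0.975, 1.54 and 0.482 CPM (-3.74, SE 0.328, adjusted p = 4.1e-10), and its 13.4, 15.2, 10.6 and 20.6 CPM in Lats1/2 flox ctrl became 5.36, 3.28 and 5.04 CPM (-1.72, SE 0.289, adjusted p = 5.7e-05). No treated library of either comparison reached a control library, and the fall with Yap was larger by 2.03 (SE 0.422, adjusted p = 7.0e-04). Cldn12 fell less, by 0.69 with Yap (SE 0.164, adjusted p = 6.1e-04) and by 0.58 in the knockout (SE 0.165, adjusted p = 0.0070), but read 0.22 (adjusted p = 0.22) and -0.12 (adjusted p = 0.56) with total counts alone, or -0.77 and -0.56 relative to the shifted medians, and its knockout call did not hold without Lats1/2 KO 2 (adjusted p = 0.055).

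Cldn5, the claudin of endothelial tight junctions, was the claudin that rose. It read 0.282, 0.251, 0.311 and 0.902 CPM in ApoYap ctrl and 5.02, 4.16 and 10.5 CPM in ApoYap Dox (3.92, SE 0.555, adjusted p = 9.2e-07). The highest endothelial marker stood at 3.53, and its difference from Cldn5 was not tested, nor was the part of these markers. In the knockout it read 1.90, 3.35 and 1.54 CPM against 0.987, 0.681, 0.238 and 0 CPM (2.24, SE 0.591, adjusted p = 0.0040). Its libraries did not overlap in either comparison.

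The scaffold genes Tjp3 and Tjp1 moved in opposite directions. Tjp3 (zonula occludens 3), restricted to epithelia, fell from 12.5, 15.1, 12.8 and 15.5 CPM to 3.11, 1.54 and 1.83 CPM with Yap (-2.67, SE 0.285, adjusted p = 9.8e-09), and from 9.54, 14.8, 13.9 and 6.60 CPM to 4.06, 2.94 and 4.45 CPM in the knockout (-1.54, SE 0.279, adjusted p = 1.2e-04). Tjp1 (zonula occludens 1), present in most epithelia and endothelia, rose in the knockout from 22.0, 15.3, 16.8 and 19.1 CPM to 34.4, 35.1 and 21.3 CPM, with overlap (0.72, SE 0.199, adjusted p = 0.0057). Its rise with Yap was small (0.47, adjusted p = 0.041), and leaving out any library but ApoYap ctrl 3 ended that call (adjusted p 0.052 to 0.14).

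No tested integrin fell in either comparison. Of 13 integrin alpha genes 10 rose with Yap and 8 in the knockout, and of 5 integrin beta genes 5 and 3, against 35.0% and 20.6% of all genes. The 12 tested integrins outside the leukocyte set, which are the receptors for collagen, laminin and RGD ligands, rose in 9 (75%) and 7 (58.3%) cases, with medians of 1.19 and 0.702.

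Integrin beta 1, the shared partner chain, dominated the family and moved little. Itgb1 (8:128685654-128733200, plus strand) read 126, 129, 126 and 123 CPM in ApoYap ctrl and 189.7, 167 and 203 CPM in ApoYap Dox, a rise of 0.57 (SE 0.0991, adjusted p = 1.9e-05) with no overlap. The knockout libraries read 159.8, 191 and 133 CPM around their controls of 151, 145, 147 and 151 CPM (0.12, 95% interval -0.09 to 0.32), and with total counts alone Itgb1 rose there (0.60, adjusted p = 2.0e-04), at 0.16 relative to the shifted median. Itgb1 made up 81.9% ± 2.07 of integrin beta CPM in ApoYap ctrl (SD, n = 4) and 60.1% ± 3.51 in ApoYap Dox (SD, n = 3), as Itgb2 went from 0.847% to 17.7%. The responses of Itgb1 differed by -0.45 (adjusted p = 0.018), a call that did not hold without ApoYap Dox 3 or Lats1/2 KO 3 (adjusted p = 0.062 and 0.082). It was also lost with no filter and in a fit to the compared groups (adjusted p = 0.057 and 0.064).

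The alpha v receptors for vitronectin and other RGD ligands rose in both. Itgav read 6.5, 7.88, 9.03 and 7.92 CPM in ApoYap ctrl and 15.6, 16.8 and 16.8 CPM in ApoYap Dox (1.07, SE 0.166, adjusted p = 3.7e-06), and 5.92, 8.85, 6.55 and 7.98 CPM against 12.7, 12.6 and 11.6 CPM in the floxed strain (0.74, SE 0.171, adjusted p = 0.0013). Its partner Itgb5 went from 22.7, 23.8, 27.3 and 28.6 CPM to 60.8, 48.5 and 80.5 CPM with Yap (1.31, SE 0.162, adjusted p = 1.1e-07) and from 22.4, 23.6, 20.8 and 24.2 CPM to 32.2, 36.4 and 31.5 CPM in the knockout (0.55, SE 0.165, adjusted p = 0.010). Treated and control libraries were apart for both genes in both comparisons. The knockout call of Itgb5 did not hold without Lats1/2 KO 2 (0.48, adjusted p = 0.058), and its responses differed by -0.76 (adjusted p = 0.016), one that did not hold without ApoYap Dox 3 (adjusted p = 0.084). Itgb3, the alpha v partner also carried by platelets, lay at 0.335 to 1.04 CPM in ApoYap ctrl and reached 5.34, 3.26 and 5.16 CPM with Yap (2.91, SE 0.481, adjusted p = 8.7e-06). In the knockout it read 3.72, 10.1 and 3.13 CPM against 0.238 to 0.568 CPM (3.84, SE 0.528, adjusted p = 4.7e-06). Platelet and megakaryocyte markers summed to 1.83 to 3.08 CPM in ApoYap ctrl, 109 to 150 CPM in ApoYap Dox, 0.847 to 2.36 CPM in Lats1/2 flox ctrl and 3.75 to 16.4 CPM in Lats1/2 KO, and their part in the result was not tested.

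Among the receptor chains for laminin and collagen, Itga6 and Itga1 rose in both comparisons and Itga3 with Yap. Itga6, a laminin receptor chain, read 4.09, 4.52, 5.92 and 8.82 CPM in ApoYap ctrl and 20.3, 20.1 and 24.0 CPM in ApoYap Dox (1.89, SE 0.316, adjusted p = 1.0e-05). The knockout took it from 2.96, 2.5, 1.55 and 2.76 CPM to 14.5, 14.0 and 4.98 CPM (2.17, SE 0.345, adjusted p = 2.9e-05), and the responses differed by 0.29 (95% interval -0.68 to 1.25). Itga3, another laminin receptor chain, rose with Yap from 3.18, 3.27, 2.18 and 3.71 CPM to 8.81, 10.3 and 8.34 CPM (1.56, SE 0.284, adjusted p = 3.0e-05). In the knockout Itga3 read 5.27, 3.76 and 2.49 CPM against 4.28, 4.09, 1.55 and 5.32 CPM (-0.01, 95% interval -0.62 to 0.60), and this difference of -1.58 between responses passed the test (SE 0.414, adjusted p = 0.0053). Itga1, a collagen receptor chain, read 16.0, 20.8 and 12.4 CPM in the knockout against 10.3, 7.26, 7.62 and 4.34 CPM (1.15, SE 0.280, adjusted p = 0.0021). Its smaller rise with Yap (0.69, adjusted p = 0.033) was lost without ApoYap ctrl 1, ApoYap ctrl 4, ApoYap Dox 1 or ApoYap Dox 2 (adjusted p 0.06 to 0.12), and with the replicate number as a block (adjusted p = 0.062). Itga8, an RGD receptor chain of stellate and smooth muscle cells, rose by 2.00 (SE 0.566) and 2.81 (SE 0.655) to at most 2.78 and 3.08 CPM. Stellate and fibroblast markers rose in 9 of 16 with Yap and 15 of 16 in the knockout, and their part was not tested. Itga5, Itga7 and Itga10 passed in neither comparison, with the widest interval for Itga10 (-2.69 to 0.71 in the knockout). Itga7 was called lower in the knockout without Lats1/2 flox ctrl 4 or Lats1/2 KO 1 (adjusted p = 0.047 and 0.044), and Itga5 higher there with limma voom (0.67, adjusted p = 0.038).

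Itga9 and Itgal were the most abundant alpha chains of ApoYap Dox, at 33.0% and 31.4% of integrin alpha CPM, within each other's spread. Itga9 (9:118606690-118901003, plus strand) pairs with beta 1 and binds tenascin and osteopontin among others. It read 4.17, 6.54, 8.72 and 12.4 CPM in ApoYap ctrl and 116, 90.6 and 153 CPM in ApoYap Dox (3.93, SE 0.515, adjusted p = 1.4e-06), and its share went from 18.6% ± 5.51 (SD, n = 4) to 33.0% ± 2.75 (SD, n = 3). In the knockout it read 29.4, 79.7 and 27.6 CPM against 13.0, 4.88, 6.07 and 6.60 CPM (2.57, SE 0.510, adjusted p = 5.8e-04). No library of either treated group overlapped its controls, and the highest knockout value was again that of Lats1/2 KO 2. The responses of Itga9 differed by -1.36 (95% interval -2.85 to 0.14, adjusted p = 0.17), which passed without Lats1/2 KO 2 (-2.03, adjusted p = 0.034).

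**Figure D3:**
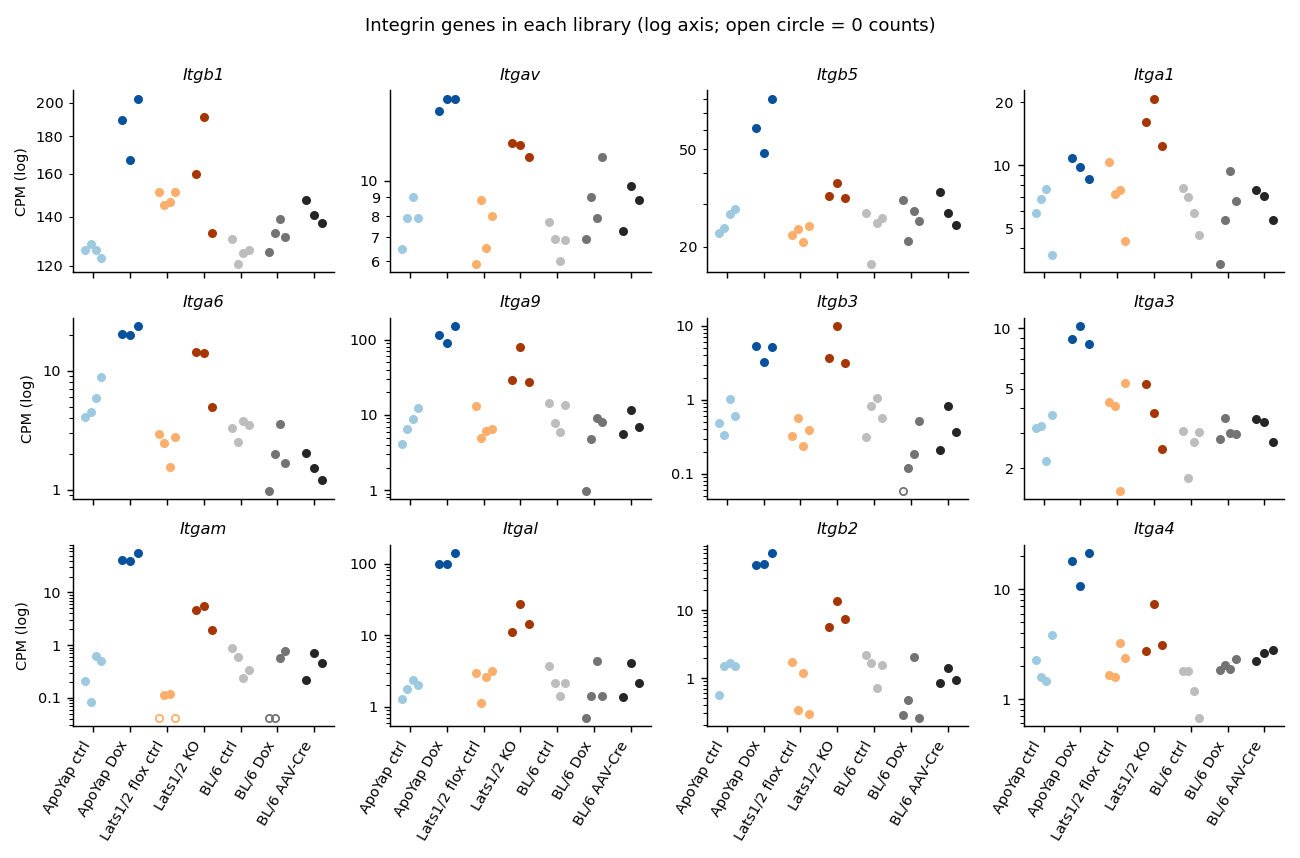
CPM of 12 integrin genes in each library (log axes that differ between panels; open circles stand for 0 counts and are placed below the lowest value). Itgam, Itgal and Itgb2 of the leukocyte set reach 39.2 to 141 CPM in ApoYap Dox and 1.96 to 27.0 CPM in Lats1/2 KO, while Itgb1 stays between 121 and 203 CPM in all 25 libraries.

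The leukocyte integrins rose with Yap. All 6 that were tested (Itgal, Itgam, Itgax, Itga4, Itgb2 and Itgb7) rose with Yap, with a median of 5.17, against 35.0% of all genes. In the knockout 4 rose, with a median of 2.58, against 20.6% of all genes. Itgam (CD11b, 7:128062640-128118491, plus strand), the alpha chain of macrophages and neutrophils, read 0.212, 0.0838, 0.623 and 0.501 CPM in ApoYap ctrl and 40.6, 39.2 and 56.1 CPM in ApoYap Dox (7.04, SE 0.501, adjusted p = 2.1e-11). In the floxed controls it had 2 counts in all, against 171 in the knockout, where it read 4.67, 5.47 and 1.96 CPM, a ratio of 69.2 (95% interval 18.9 to 576, counting error only; adjusted p = 2.4e-06). Itgal (CD11a), the alpha chain shared by most leukocytes, went from 1.27, 1.76, 2.39 and 2.00 CPM to 99.9, 99.5 and 141 CPM with Yap (5.95, SE 0.435, adjusted p = 1.6e-10). The knockout libraries of Itgal read 11, 27.0 and 14.1 CPM against 2.96, 1.14, 2.62 and 3.15 CPM (2.80, SE 0.419, adjusted p = 2.9e-05), and the responses differed by -3.15 (SE 0.616, adjusted p = 5.6e-04).

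Itgb2 (CD18), the beta chain of these leukocyte receptors, read 0.565, 1.51, 1.66 and 1.5 CPM in ApoYap ctrl and 47.5, 48.4 and 70.6 CPM in ApoYap Dox (5.43, SE 0.470, adjusted p = 1.3e-09). In the knockout it read 5.62, 14.0 and 7.37 CPM against 1.75, 0.341, 1.19 and 0.296 CPM (3.34, SE 0.509, adjusted p = 3.0e-05). Its responses differed by -2.10 (adjusted p = 0.037), a call lost on leaving out any of 6 of the 14 libraries: ApoYap ctrl 1, ApoYap Dox 3, Lats1/2 flox ctrl 1, Lats1/2 flox ctrl 3, Lats1/2 KO 1 or Lats1/2 KO 3 (adjusted p 0.074 to 0.2). That call was also lost with no filter (adjusted p = 0.084). Itga4, the chain that binds VCAM-1, went to 17.9, 10.8 and 21.4 CPM from 2.26, 1.59, 1.45 and 3.81 CPM with Yap (2.87, SE 0.348, adjusted p = 8.0e-08). In the knockout Itga4 overlapped its controls (2.77, 7.39 and 3.07 against 1.64, 1.59, 3.21 and 2.37 CPM; 1.00, adjusted p = 0.032), a call that did not hold without Lats1/2 KO 2 (0.42, adjusted p = 0.44) and without Lats1/2 flox ctrl 1 or 2 (adjusted p = 0.084 and 0.091), in a fit to the compared groups (adjusted p = 0.085) and with limma voom (adjusted p = 0.19). Itgax (CD11c), a chain of dendritic cells and macrophages, went from 2 counts in ApoYap ctrl to 114 in ApoYap Dox, a ratio of 36.9 (95% interval 9.99 to 309), and Itgb7, the beta chain of gut-homing lymphocytes, rose from at most 0.301 CPM to 0.904 to 1.69 CPM (2.93, SE 0.733, adjusted p = 0.0011). Itgax and Itgb7 did not pass in the knockout (adjusted p = 0.057 and 0.40), though Itgax passed without Lats1/2 flox ctrl 1 or Lats1/2 KO 1 (adjusted p = 0.0045 and 0.04) and with limma voom (adjusted p = 0.042).

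Macrophage markers moved with the leukocyte integrins. All 18 Kupffer cell and macrophage markers rose in both comparisons, with medians of 5.64 (range 3.19 to 6.24) with Yap and 2.82 (range 1.47 to 4.90) in the knockout. Their sum was 121 to 282 CPM in ApoYap ctrl, 14740 to 26000 CPM in ApoYap Dox, 107 to 323 CPM in Lats1/2 flox ctrl and 1049 to 2764 CPM in Lats1/2 KO. The 7 leukocyte integrins, scaled by TMM unlike the markers, summed to 4.80 to 8.62, 200 to 294, 3.86 to 7.86 and 24.98 to 56.4 CPM in the same groups. Within each treated group the library with the highest sum was the same for both lists (ApoYap Dox 3 and Lats1/2 KO 2). Neutrophil markers summed to 22.4 to 61.2 CPM in ApoYap Dox and 1.39 to 5.73 CPM in the knockout against at most 1.53 CPM in either control, and T, NK and B cell markers to 6.31 to 12.2 and 0.394 to 2.03 CPM against at most 0.529 CPM. The Yap fold change of Itgam was 7.04, beside 6.24 for the highest macrophage marker, and their difference was not tested. The part of these cells in the result was not tested either.

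**Figure D4:**
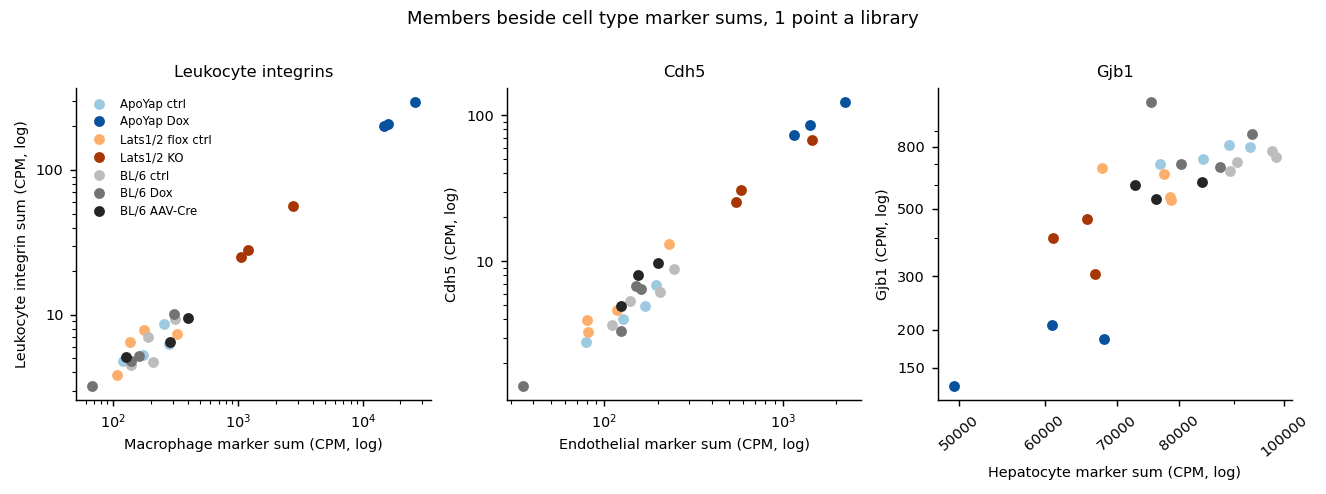
Each library of the 7 groups as a point on log axes: the sum of 7 leukocyte integrins against the sum of 18 macrophage markers, Cdh5 against the sum of 18 endothelial markers, and Gjb1 against the sum of 10 hepatocyte markers. Members are in CPM after TMM scaling and marker sums in CPM of the library total without it. The treated libraries are at the upper right of the first 2 panels (leukocyte integrins 200 to 294 CPM in ApoYap Dox) and at the lower left of the third (Gjb1 131 to 207 CPM).

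Doxycycline water and the virus alone were given to BL/6 mice, which tests what each agent does to these genes without the transgene or the floxed alleles. With doxycycline 0 of the 37 members were called in either direction (5 had an unadjusted p under 0.05), where 0.0231% of all genes were called higher and 0.100% lower. Tjp3 and Cldn14, though not called, lay below all BL/6 ctrl libraries. How many of all genes did so was not counted. Tjp3 read 8.60, 8.09, 7.64 and 6.99 CPM against 15.5, 15.3, 12.9 and 11.7 CPM (-0.82, 95% interval -1.33 to -0.32, adjusted p = 0.20). Cldn14 read 10.4, 10.1, 11.1 and 6.08 CPM against 17, 15.2, 15.5 and 17 CPM (-0.77, 95% interval -1.30 to -0.25, adjusted p = 0.23). Both genes fell with Yap, and both were still called lower net of doxycycline (Tjp3 -1.848, Cldn14 -2.969).

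With the virus 0 members were called by edgeR (6 had an unadjusted p under 0.05), where 0.254% of all genes were called higher and 0.0463% lower. Cdh1 was nearest to a call: its 188, 139.7 and 129 CPM lay below the 237, 233, 245 and 279.6 CPM of BL/6 ctrl (-0.71, 95% interval -1.10 to -0.32, adjusted p = 0.096). DESeq2, limma voom, a fit to the compared groups alone and leaving out BL/6 AAV-Cre 1 each called Cdh1 lower (adjusted p = 0.029, 0.0042, 0.0071 and 0.043). Cldn1 also lay below its controls, with 66.0, 52.2 and 49.1 CPM against 75.7, 78.6, 74.3 and 87.7 CPM (-0.50, 95% interval -0.85 to -0.16, adjusted p = 0.18), and was called lower by voom and by the fit to the compared groups (adjusted p = 0.025 and 0.013). So did Gjb1, with 614, 541 and 601 CPM against 715, 664, 773 and 744 CPM. The fit to the compared groups called Gjb1 lower (-0.31, adjusted p = 0.037). Over all 12970 genes DESeq2 called 49 and limma voom 214 lower with the virus, where edgeR called 6.

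Subtracting these control responses left most calls of Yap induction and fewer of the knockout. Net of doxycycline 18 members (48.6%) were higher, against 26.7% of all genes, and 11 (29.7%) lower, near the 27.4% of all genes. Gjb1 (-2.35, SE 0.233), Cldn1 (-1.78, SE 0.230), Cldn14 (-2.97, SE 0.408) and Cdh1 (-1.754, SE 0.258) had the smallest p-values among those that were lower. Without BL/6 Dox 1 and 2, which had the lowest scores of their group on the first 2 principal components, 14 were higher and 10 lower. The share of all genes called in that fit is not given here. Net of the virus 10 members (27%) were higher, against 13.0%, and 3 (8.11%) lower, against 11.4%: Gjb2 (-1.10, SE 0.224), Cdh2 (-0.95, SE 0.201) and Cldn14 (-1.74, SE 0.389). Since the untreated BL/6 libraries enter both nets, they are not independent of each other, and the knockout was read 1 week and its virus control 24 hours after injection.

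The knockout and Yap responses share no library and could be set against each other. In the test of their difference 7 members (18.9%) were higher in the knockout response, a share near the 17.4% of all genes. They were Cdh1, Cldn1, Cldn2, Cldn3, Cldn14, Tjp3 and Gjb1, with differences of 1.12 for Cldn3 to 2.16 for Cldn2. These 7 junction genes fell with Yap. The call of Tjp3 (1.13, adjusted p = 0.028) was lost on leaving out ApoYap Dox 2 or 3, Lats1/2 flox ctrl 1 or 4, or Lats1/2 KO 1 or 3 (adjusted p 0.051 to 0.088), and with limma voom (adjusted p = 0.1). Lower in the knockout response were 6 (16.2%), against 12.4% of all genes: Itga3, Itga4, Itgal, Itgb1, Itgb2 and Itgb5, all integrins. Total counts alone shifted the median of all genes in this difference by -0.445, to -0.454. After that 5 members were higher and 8 lower, where 1174 of all 12970 genes were called higher and 3648 lower. Cldn3 and Tjp3 then no longer passed (adjusted p = 0.052 and 0.18), both at 1.12 relative to the shifted median.

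The partner proteins of these junctions, from lists of known pathway genes, moved in both directions. Of 20 tested tight junction partners 5 rose and 8 fell with Yap, and 5 rose and 1 fell in the knockout (medians -0.174 and 0.262). Over all genes 35.0% were called higher and 32.0% lower with Yap, and 20.6% and 17.4% in the knockout, near the shares of this list apart from the falls in the knockout (5%). Ocln (occludin), a strand protein beside the claudins, fell by 1.90 with Yap (SE 0.247, adjusted p = 2.6e-07) and read 0.06 in the knockout (95% interval -0.42 to 0.55), a difference of 1.96 (adjusted p = 8.4e-05). Cxadr, an adhesion receptor of tight junctions, fell by 0.82 with Yap and rose by 0.90 in the knockout, a difference of 1.72 (SE 0.273, adjusted p = 3.9e-05). Lsr, a protein of tricellular junctions, fell with Yap (-1.53) and Pard3, a polarity scaffold, in both (-1.64 and -0.78), whereas Jam2, a junctional adhesion molecule also carried by endothelium, rose in both (1.71 and 2.74), as did the scaffold genes Mpdz (0.65 and 1.46) and Tjap1 (1.24 and 0.93).

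Among 18 adherens and desmosome partners 5 rose and 7 fell with Yap, and 5 rose and 2 fell in the knockout, where 35.0% and 32.0% of all genes were called higher and lower with Yap and 20.6% and 17.4% in the knockout. Perp, a desmosome membrane protein, fell by 2.42 with Yap (SE 0.165, adjusted p = 4.2e-12) and read -0.36 in the knockout (adjusted p = 0.067), a difference of 2.06 (SE 0.218, adjusted p = 1.1e-07). Dsc2, a desmosomal cadherin, fell by 0.94 with Yap and rose by 0.58 in the knockout (difference 1.52, SE 0.253, adjusted p = 5.7e-05). Nectin1, an adhesion molecule of adherens junctions, fell in both (-1.42 and -0.70), and the junction plaque genes Pkp4 (0.89 and 0.64) and Plekha7 (1.69 and 0.96) rose in both.

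Integrin adaptors, which tie the receptors to actin and switch them on, rose in 15 of 27 with Yap and 13 of 27 in the knockout, against 35.0% and 20.6% of all genes, and none fell. Talin 1 (Tln1), the main activator of integrins, rose by 2.16 (SE 0.131) and 1.06 (SE 0.131), and Rap1b, a small GTPase upstream of talin, by 2.72 (SE 0.139) and 0.94 (SE 0.138). Both rose less in the knockout (differences of -1.10 and -1.77, adjusted p = 6.9e-05 and 2.3e-07). Lims1 (PINCH1) rose by 1.42 and 1.53, with an interval of the difference from -0.52 to 0.74. Parvg and Apbb1ip, adaptors known from blood cells, rose most among those named (5.89 and 5.36 with Yap, 3.11 and 2.62 in the knockout), and macrophage markers rose beside them as given above.

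Integrin ligands rose in 18 of 26 and fell in 6 with Yap, and rose in 15 and fell in 4 in the knockout. The shares that rose were 69.2% and 57.7%, against 35.0% and 20.6% of all genes, and those that fell 23.1% and 15.4%, against 32.0% and 17.4%. The laminin and basement membrane genes Lamb2 (4.43 and 3.21), Lamc1 (1.29 and 1.74) and Nid1 (4.63 and 3.96) rose in both. Spp1 (osteopontin; 5.40 and 3.24), Vcam1 (5.13 and 2.54), the ligand of the alpha 4 receptors, and Tgfb1 (5.33 and 2.82), whose latent form binds alpha v receptors, did as well, and each rose less in the knockout (differences of -2.16, -2.59 and -2.51, adjusted p = 0.018, 0.0020 and 0.017). The fibrinogen genes Fga (-1.98 and -0.46) and Fgg (-2.13 and -0.46), which hepatocytes secrete, fell in both and less in the knockout (differences of 1.52 and 1.67).

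The 13 members below the filter were Itga11, Itgae, Itgb4, Itgb8, Cdh11, Cdh15, Cldn4, Cldn6, Cldn7, Cldn15, Cldn18, Cldn20 and Cldn23, and no library had more than 0.877 CPM of any of them. Itga11 and Itgb8 went from 0 counts in ApoYap ctrl to 23 and 19 in ApoYap Dox, which makes them at least 4.97-fold and 4.1-fold higher against a floor of 3 counts over the group. Cldn15 went from 1 count in ApoYap ctrl to 21 in ApoYap Dox, a ratio of 13.6 (95% interval 2.19 to 563), and Cldn6 2 and 16 counts, a ratio of 5.18 (1.22 to 46.5). In the knockout Cldn15 and Cldn23 had 7 counts each against 0, at least 1.89-fold higher. Claudins 4 and 7, known from bile duct epithelium, had at most 13 counts in any of the treated groups, and their ratios reached below 1 at the lower bound wherever both groups had counts.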

How the data were processed

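The deposited file is 1 table of raw read counts per gene symbol for 25 libraries of QuantSeq 3′ mRNA-Seq, which yields 1 tag per transcript at the 3′ end. Per the submitters' processing notes, FastQC, cutadapt and STAR 2.6.1d were used with mm10 and GRCm38; for the counting tool, annotation and strand setting the entry is "not given in the sources used here", and no molecular identifiers are named, so counting intervals cover counting error only. Groups were taken from the labels.

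From the counts, edgeR 4.0.16 (R 4.3.3) fitted 7 groups in 1 robust quasi-likelihood model after filterByExpr (minimum count 10, minimum total 15) and TMM scaling, which left 12970 of 37117 genes, with Benjamini-Hochberg adjustment over all of these (threshold 0.05). The members, lists and tests were chosen with earlier results of these data known; of 52 genes that met the rule 2 are not reported here. Intervals are 95% intervals of the fitted log2 fold change. Fitted changes of genes with at most 3 counts in a group depend on the prior count (0.125), so ratios of scaled counts with exact intervals are given. Described genes were, in each family, up to 6 by mean CPM and up to 4 by smallest p with Yap and in the knockout, and up to 4 per partner list; Itga3, Itga5, Itga7, Itga8, Itga10, Itgax, Gjc1 and the members below the filter were added after their values were seen. Gene positions are from the GENCODE M21 annotation (GRCm38) and promoters from RefSeq. Alternatives were total counts or RLE scaling, no filter or at least 10 CPM in 3 libraries, stricter thresholds, a replicate block, the compared groups alone, DESeq2 1.42.0, limma 3.58.1 voom, each library left out, and, chosen after seeing the data, BL/6 Dox 1 and 2 left out together. The fit was also run on simulated counts with known changes, and the outcome is not given here. No replicate pair agreed within sampling noise (lowest chi-square per degree of freedom 7.69).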

Additional observations from a re-analysis of the deposited data

Results flagged for a closer look

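Single libraries stood apart from the rest of their group in 11 of 156 group values checked. Only groups with 4 libraries were checked, so ApoYap Dox, Lats1/2 KO and BL/6 AAV-Cre (n = 3 each) were not. Chance flags about 1 in 20 normally distributed values, a rate that need not hold for low counts, so no excess over chance is claimed. Lats1/2 flox ctrl 1 was high for Cdh5 (13.05 CPM, others 3.292 to 4.642) and Cdh13 (2.083 CPM, others 0.454 to 0.5951), and it had the highest endothelial marker sum of its group (231.7 CPM). ApoYap ctrl 4 was high for Cldn5 (0.9018 CPM, others 0.2514 to 0.3114) and Itgb4 (0.501 CPM, others 0.08379 to 0.1412), a partner chain of laminin receptors in epithelia. Itgb2 was low in ApoYap ctrl 1 (0.5648 CPM, others 1.503 to 1.661) and high in BL/6 Dox 3 (2.075 CPM, others 0.2589 to 0.4761). Gjb2 was high in ApoYap ctrl 3 (243.5 CPM, others 167 to 179.2). Itgax was found in ApoYap ctrl 4 (0.2004 CPM), Lats1/2 flox ctrl 1 (0.5483 CPM) and BL/6 ctrl 2 (0.1193 CPM), and Gjc1 in ApoYap ctrl 4 (0.3006 CPM), with the other libraries of each group at 0. In such a group any count in a single library is flagged, whatever its size.

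The response to doxycycline differed between ApoYap and BL/6 mice, by the interaction term of the edgeR fit, for 29 of the 37 tested members. Over all genes 26.7% were called higher and 27.4% lower in this contrast. On the log2 scale the ApoYap response was higher for the integrins Itga3 (1.347), Itga4 (2.331), Itga6 (2.497), Itga8 (3.341), Itga9 (4.766), Itgal (6.17), Itgam (7.636), Itgav (0.7043), Itgb1 (0.4918), Itgb2 (6.308), Itgb3 (4.553), Itgb5 (1.171) and Itgb7 (2.967). It was also higher for Cdh4 (3.301), Cdh5 (4.754), Cldn5 (5.449), Gja1 (3.566) and Gja4 (2.3). It was lower for Cdh1 (-1.754), Cdh2 (-1.281), Cldn1 (-1.782), Cldn2 (-1.849), Cldn3 (-1.302), Cldn12 (-0.7216), Cldn14 (-2.969), Tjp3 (-1.848), Gjb1 (-2.349), Gjb2 (-1.313) and Gjc3 (-1.943). Total counts alone shifted the median of all genes in this contrast by 0.931, to 0.962, with which Cldn12 turned (0.2025) and Cdh2, Cldn3, Gjb2 and Gjc3 lost the call; relative to that median the 5 genes stayed at -0.76, -1.32, -1.33, -1.36 and -1.99. Among libraries left out singly, the call was lost for Itgb7 without ApoYap ctrl 2, ApoYap Dox 3 or BL/6 ctrl 1 (adjusted p = 0.05, 0.06 and 0.22) and for Cdh4 without ApoYap ctrl 1 or BL/6 ctrl 4 (adjusted p = 0.054 and 0.11). It was lost for Gja4 without ApoYap Dox 3 (adjusted p = 0.057) and for Gjc3 without any of 8 libraries, ApoYap ctrl 1, all 3 of ApoYap Dox, BL/6 ctrl 3 and 4 and BL/6 Dox 2 and 4 (adjusted p 0.052 to 0.071).

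The response to AAV8-TBG-Cre differed between floxed and BL/6 mice for 13 members, where 13.0% of all genes were called higher and 11.4% lower. The response was read at 1 week in the floxed and at 24 hours in the BL/6 mice. It was higher in floxed mice for Itga6 (3.215), Itga8 (4.838), Itga9 (2.963), Itgal (2.764), Itgam (6.16), Itgb2 (3.911), Itgb3 (4.371), Cdh4 (4.769), Cdh5 (2.417) and Cldn5 (3.392). It was lower for Cdh2 (-0.9546), Cldn14 (-1.735) and Gjb2 (-1.101). The call of Cdh5 was lost without Lats1/2 KO 2 (1.872, adjusted p = 0.068) and that of Cdh2 with total counts alone (-0.4994, adjusted p = 0.069). The value of Itgam depends on the prior count, since the floxed controls held 2 counts.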

How the results depend on the processing

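Counts are of the 37 tested members unless said otherwise, each given for the comparison named, and causes were not tested. Requiring 10 CPM in 3 libraries left 24 members to test, of which 14 rose with Yap and 6 were higher in the knockout net of AAV-Cre. Of the 8508 genes left by this filter, 3216 and 1351 were called higher in the same comparisons. With total counts alone 3 fell in the knockout, 6 were lower with Yap net of doxycycline and 17 were higher in the knockout net of AAV-Cre. Of all 12970 genes, total counts alone called 573, 1424 and 3483 in the same directions of these comparisons. That scaling, whose shift is common to all genes, also turned the sign of Cldn12 with Yap (0.2157, adjusted p = 0.22) and net of doxycycline (0.2025, adjusted p = 0.42), at -0.77 and -0.76 relative to the shifted medians, and of Cldn1 in the knockout (0.4563, adjusted p = 0.029; 0.01 relative to the median). At a log2 fold change of at least 1, 3 fell in the knockout, and at an adjusted p under 0.01, 3 were lower in the knockout response than in the Yap response. Shares of all genes at these stricter thresholds are not given here. With the virus in BL/6, where 0 were called lower, the compared groups alone gave 3, DESeq2 1 and limma voom 2. Of all 12970 genes the main fit called 6, DESeq2 49 and limma voom 214 lower. The number for the compared groups alone is not given here.

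Leaving out 1 library at a time gave 19 to 22 members higher and 11 lower with Yap. In the knockout it gave 15 (without Lats1/2 KO 2) to 19 higher and 4 (without Lats1/2 KO 2) to 8 (without Lats1/2 KO 1) lower. It gave 0 with doxycycline in both directions and, with the virus, 0 higher and 0 to 1 lower (1 without BL/6 AAV-Cre 1). Net of doxycycline the counts were 16 to 19 higher and 10 to 11 lower, and net of the virus 9 to 13 higher and 3 to 4 lower. Between both responses they were 6 to 8 higher and 3 (without ApoYap Dox 3) to 8 (without Lats1/2 KO 2) lower. Shares of all genes in these fits are not given here, so it cannot be told whether the counts moved with the whole table. Over single genes, 2569 values kept their side of the threshold, 55 lost and 31 gained a call.

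With the replicate number as a block 22 members rose and 11 fell with Yap, where 4479 of all 12970 genes were called higher and 4065 lower. In the knockout 18 rose and 6 fell, where 2558 genes were called higher and 2167 lower. The block changed 5 gene calls. Itga1 with Yap (0.58, adjusted p = 0.062) and Itgb7 net of doxycycline (2.67, adjusted p = 0.063) were lost. Gjc1 net of doxycycline (adjusted p = 0.046) and Itga1 (1.08, adjusted p = 0.048) and Cldn1 (0.52, adjusted p = 0.046) net of the virus were gained. Deviations of same-numbered libraries correlated at -0.24 to 0.164. Such correlations over all genes cannot exclude a shared batch, which the labels do not give. RLE scaling kept 257 gene calls and changed 2, and DESeq2, where it gave an adjusted p, kept 243 and changed 4. A single count is worth up to 0.141 CPM, which limits what can be said of members below 1 CPM.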
